A study of Mus musculus with 2 samples.

Results

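Slc26a3-dominant absorptive cells were the 198 cells of 1 imaged region in which the chloride exchanger Slc26a3 gave at least 3 counts and at least as many counts as the water channel Aqp8. They were chosen in region 1 of the female mouse among cells with at least 10 counts over the 140 panel genes. Such cells numbered 1256 of the 13707 cells of that region, and all 4 region tables together held 31893 cells of any depth. The study imaged duodenum and colon of C57Bl6 mice with the MERSCOPE platform, in which fluorescent barcodes identify single transcripts in fixed sections, and 2 regions were deposited for each of 1 male (replicate 1) and 1 female (replicate 2). The animals carried no stated treatment or allele, and their age is given as 6 to 10 weeks in the sample labels and as 6 weeks in the collection protocol. Which region holds duodenum and which holds colon is not stated in the labels. All values below therefore describe cells of 1 region of 1 animal, no test between animals was possible, and 95% intervals, given in brackets, are exact and cover counting error only.

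Absorptive colonocytes line the surface of the large bowel and take up chloride, sodium and water from the lumen. Slc26a3 sits in their apical membrane and exchanges luminal chloride for bicarbonate, and its loss causes a diarrhoea rich in chloride. Aqp8 lets water pass through membranes, Ezr (ezrin) ties the actin core of microvilli to the apical membrane, and Shroom3 recruits contractile actomyosin to the apical junctions of epithelial cells. Cells of the crypt below secrete chloride through the channel Cftr, with potassium channels such as Kcnn4 and Kcnq1 keeping up the driving force.

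The promoters of the pair of genes that define the cells are shown because both transcripts were counted together in most of these cells. The stretches are the 250 bases before each gene's start in RefSeq (GRCm38.p6), read 5′ to 3′ on the plus strand, at chr12:31437969-31438218 for Slc26a3 and chr7:123462044-123462293 for Aqp8. Capitals mark matches to the motif letters searched on both strands.
Slc26a3: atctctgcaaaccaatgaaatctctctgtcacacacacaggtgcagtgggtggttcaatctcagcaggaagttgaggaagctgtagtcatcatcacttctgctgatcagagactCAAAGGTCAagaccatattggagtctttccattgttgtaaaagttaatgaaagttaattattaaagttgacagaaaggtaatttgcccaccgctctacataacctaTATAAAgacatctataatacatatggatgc
Aqp8: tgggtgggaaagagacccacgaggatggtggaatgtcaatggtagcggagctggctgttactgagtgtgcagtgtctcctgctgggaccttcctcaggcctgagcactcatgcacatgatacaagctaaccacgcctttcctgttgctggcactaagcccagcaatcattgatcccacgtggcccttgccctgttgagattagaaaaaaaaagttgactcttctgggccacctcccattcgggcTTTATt
In the Slc26a3 stretch the capitals are an HNF4 match, CAAAGNNCA, 136 to 128 bases before the start, and a TATA box match, TATAAA, 30 to 25 bases before it. The last bases of that TATA box also read TTTAT, the CDX letters, on the opposite strand, 29 to 25 bases before the start. In the Aqp8 stretch the capitals are a CDX match 6 to 2 bases before the start. Among 32851 promoter windows of this length, 37.3% held the CDX letters, 5.49% the HNF4 letters, 12.4% the TATA box letters and 9.99% the GATA letters AGATAA, which neither stretch held. A match is a description of the letters and says nothing about binding.

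Most Slc26a3-dominant cells also carried Aqp8, and the choice cut through a continuous range. The counts of both genes and the panel total chose the cells and are given as a description. Slc26a3 ranged from 3 to 31 counts per cell with a median of 5, and Aqp8 from 0 to 21 with a median of 3. Aqp8 was at 0 in 19 of the cells (9.60%), at 1 or 2 in 70 (35.4%) and at 3 or more in 109 (55.1%). Panel totals ranged from 10 to 130 with a median of 21, and counts of the other genes of the panel from 3 to 78 with a median of 13. The comparison group of Aqp8-dominant cells, with at least 3 Aqp8 counts and more Aqp8 than Slc26a3, held 273 cells with medians of 7 Aqp8 and 3 Slc26a3 counts. Of these, 161 also had at least 3 Slc26a3 counts and 21 had none.

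Near the limits, 32 Slc26a3-dominant cells had equal counts of both genes and 43 had 1 more Slc26a3, while 39 Aqp8-dominant cells had 1 more Aqp8, so that 114 of the 471 cells of both kinds (24.2%) lay within 1 count of the dividing line. At the other limits, 53 cells sat at exactly 3 Slc26a3 counts against 63 deep cells at 2 that had no more Aqp8, and 10 sat at a panel total of 10 against 5 that met both gene limits at 9. In the 365 deep cells with at least 6 counts of both genes together, the Slc26a3 share of that sum had a median of 41.2% and quartiles of 28.6% and 55.6%. Shares between 30% and 60% held 202 of them, 43 lay under 20% and 13 over 80%, so most values lay in 1 broad middle range. The spread was 1.52 times the variance that counting from 1 common share gives. The number of probes per gene is not given in the sources used here, so counts of the pair were not read as relative amounts of transcript.

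**Figure D1:**
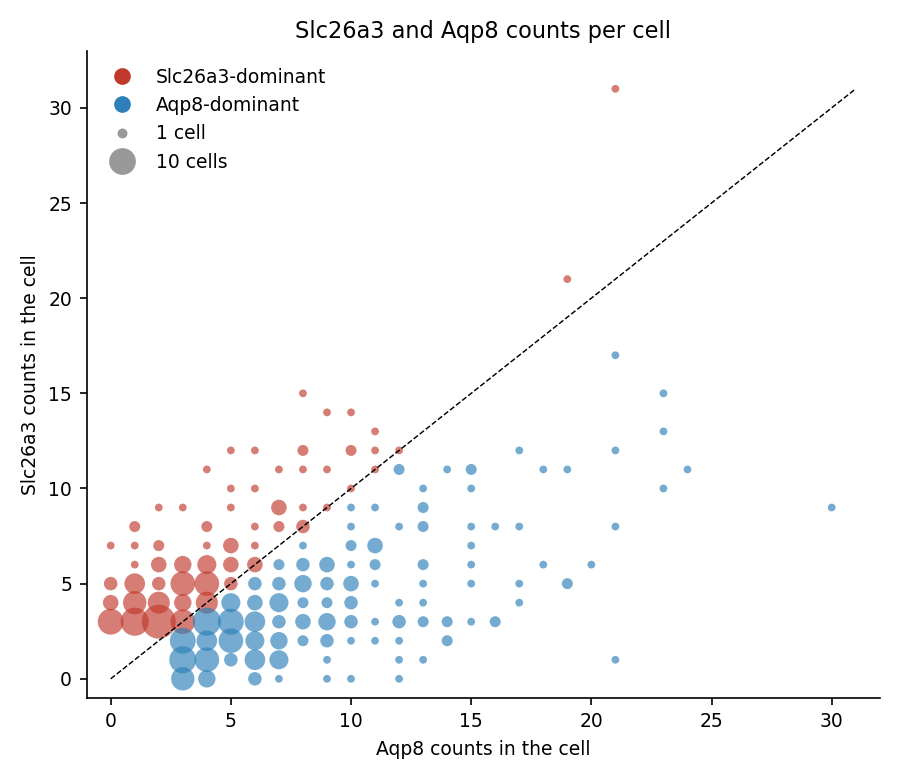
Slc26a3 counts (y axis) against Aqp8 counts (x axis) of the 198 Slc26a3-dominant and 273 Aqp8-dominant cells, with the area of a point giving the number of cells and the dashed line marking equal counts. Both kinds of cell meet at the line: 114 of the 471 lie within 1 count of it, while 123 Slc26a3-dominant and 234 Aqp8-dominant cells lie 2 or more counts away.

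Cells of this kind were found in 1 of the 4 tables. The female region 1 held 45942 panel counts, against 582 to 4288 in the other 3 tables, and 3272 Slc26a3 counts against 7, 8 and 10. The same limits found 0 cells in each of those 3 tables, and no cell identifier was shared between tables. Those tables held only 55, 4 and 77 cells with at least 10 panel counts, against 1256, so few cells there could be chosen. In the female region 1, 34.8% of all Slc26a3 counts lay in the Slc26a3-dominant cells, 30.2% in the Aqp8-dominant cells and 73.7% in all cells with at least 10 counts.

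Ezr and Shroom3, the genes of the colonocyte list that the panel holds beyond the genes of the choice, were present in most of the cells. Levels below are counts per 10000 counts of the other genes, which are all panel genes but Slc26a3 and Aqp8. Ezr ranged from 0 to 20 counts per cell with a median of 3, was found in 171 of 198 cells (86.4%, 80.8 to 90.8), and had a level of 2336 (2174 to 2507). Shroom3 ranged from 0 to 16 with a median of 1.5, was found in 71.7% of the cells, and had a level of 1299.5 (1179.5 to 1428). Both were present in 62.6% of the cells and neither in 4.55%. Neither gene is particular to these cells: cells chosen by Cftr, Kcnn4 and Slc12a8, described below, had levels of 417 for Ezr and 603 for Shroom3. The list was chosen with earlier results of these data known, so the presence of both genes is a description and no independent support for the name. Other markers of the list such as Car1, Krt20 or Epcam are not among the panel genes, so the name rests on few genes and on no label of the tissue.

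Ezr, Shroom3, the antioxidant enzyme Prdx6, the adhesion and Wnt signalling protein Ctnnb1 (beta-catenin) and the actin monomer binder Pfn1 (profilin) gave 58.9% of the counts of the other genes. Prdx6 ranged from 0 to 7 counts per cell with a median of 1 and had a level of 855 (758 to 961). Ctnnb1 ranged from 0 to 12 with a median of 1, at a level of 704 (617 to 801). Pfn1 ranged from 0 to 6 with a median of 1, at a level of 695 (608 to 791). Ezr, Shroom3 and Prdx6 were all present in 92 cells (46.5%) and all absent in 6.

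A next tier of genes was found in a smaller share of the cells. Atp10b, a lipid flippase of the P4 ATPase family, was found in 40.4% of the cells at a level of 326 (268 to 394). Clec2h, a lectin-like surface protein of gut epithelium, was found in 20.7% at 181 (138.4 to 233). The fatty acid receptor Ppard and Gucy2c, the guanylin receptor that raises cyclic GMP, were each found in 24.7%, at levels of 178 and 175. Of the other genes, 35 had more counts in these cells than the highest blank barcode, which had 10, and 21 had none.

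Against all remaining deep cells of the region (1058 cells), the Slc26a3-dominant cells had higher levels of Prdx6, Ezr and Heph, a ferroxidase needed for iron export from enterocytes, and lower levels of stromal, muscle and crypt genes. A gene was counted as different when its ratio of levels was at least 2 or at most 0.5 with at least 20 counts over both groups. Of 99 genes, 3 were higher (3.03%) and 40 were lower (40.4%), and the median ratio over all 99 was 0.663. These shares are the background for the counts of list members that follow.

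Prdx6 was found in 67.2% of the Slc26a3-dominant and 29.3% of the remaining cells and its level was 2.32-fold higher (2.01 to 2.68). Ezr was found in 51.7% of the remaining cells, with 0 to 22 counts and a median of 1, and its level was 2.05-fold higher (1.89 to 2.23). Single cells of both groups overlapped over nearly the whole range. Heph was 2.26-fold higher (1.14 to 4.28) on 15 against 33 counts, but at 1.78 (0.900 to 3.38) with all 140 genes in the total and at 1.43 (0.439 to 4.10) in cells with at least 25 panel counts. Adipor2, an adiponectin receptor, was just under the limit at a ratio that rounds to 2.00 (1.36 to 2.90), and the growth factor receptor Egfr was at 1.97 (1.13 to 3.32).

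Blank barcodes, which match no gene, were at 242 (192 to 301) against 149.6 per 10000 counts of the other genes. This is a ratio of 1.62 (1.24 to 2.09). Per panel count, with Slc26a3 and Aqp8 in the total, the blank ratio was 1.28 (0.979 to 1.65), an interval that included 1. A higher blank density in these cells thus depended on the total used. The intervals of Prdx6, Ezr, Heph, Adipor2 and Egfr all overlapped with the blank interval on the other-gene total. The part of blanks in these genes was not tested. Shroom3 was at a ratio of 1.69 (1.51 to 1.88), Ppard at 1.54 (1.13 to 2.08), Atp10b at 1.5 (1.20 to 1.86) and Ctnnb1 at 1.40 (1.21 to 1.63), all under 2. Of the 99 intervals, 14 lay above 1 and 30 below.

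The size of the higher levels depended on which cells stood on the other side. With all 140 genes in the total, Prdx6 was at 1.83 and Ezr at 1.62, and in cells with at least 25 panel counts they were at 1.49 and 1.41. Leaving out cells with at least 2 stromal, muscle, neuronal or glial counts on both sides gave 1.53 (1.29 to 1.81) for Prdx6, 1.28 (1.15 to 1.42) for Ezr, 0.997 (0.828 to 1.19) for Ctnnb1 and 0.870 (0.594 to 1.25) for Clec2h, which otherwise was at 1.42 (1.05 to 1.90). Leaving out the Aqp8-dominant cells instead, a setting chosen after seeing the data, gave 5.88 (4.83 to 7.18) for Prdx6, 4.45 (3.99 to 4.96) for Ezr and 2.72 (2.39 to 3.10) for Shroom3. In that setting 14 of 84 genes were higher (16.7%) and 37 lower (44.0%), among the higher ones Adipor2 (3.37), Clec2h (2.73) and Atp10b (2.32), with blanks at 2.23 (1.66 to 2.98).

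Genes of the apical cytoskeleton and polarity list differed among themselves. Of the 5 on the panel, Ezr was higher, the planar polarity gene Prickle2 was lower at 0.425 (0.199 to 0.809), and Shroom3, Ctnnb1 and the polarity scaffold Pard3 were under the fold, with Pard3 at 0.829 (0.409 to 1.54). The median ratio of the list was 1.40 and its summed level was 1.75-fold higher (1.64 to 1.85).

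Crypt transport genes gave few counts, Kcnn4 and Cftr 1 each and Slc12a8 and Kcnq1 6 each. Blank barcodes had 2.0 counts each on average in these cells, and 10 at the highest. In the ion and fluid transport list, 4 of 5 genes were lower and none was higher, with a median ratio of 0.224. Kcnn4 had 1 count in 198 cells against 114 in the remaining cells, a ratio of 0.0436 (0.00109 to 0.248). Of these 114 counts, 58 lay in the cells chosen below by Cftr, Kcnn4 and Slc12a8, so not all came from those cells. Cells with at least 5 counts of Fn1, Vim and Des together held 20, and a cell could belong to both groups. Cftr had 1 against 48, a ratio of 0.104 (0.00257 to 0.605). Slc12a8, a cation-chloride cotransporter family member, had 6 against 133 (0.224, 0.0808 to 0.501), and Kcnq1 had 6 against 71 (0.420, 0.149 to 0.960). Gucy2c, the list's other gene, was at 1.26 (0.931 to 1.69).

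Stromal and muscle markers were low but not at 0. All 6 stromal markers and all 3 muscle markers on the panel were lower. The muscle marker Cacna1c was at 0.452 (0.0887 to 1.44) on 3 against 33 counts, an interval that included 1. The matrix gene Fn1 (fibronectin) was found in 18.7% of the Slc26a3-dominant and 48.5% of the remaining cells, with a ratio of 0.136 (0.0969 to 0.186). The muscle filament gene Des (desmin) was at 0.0566 (0.0243 to 0.112), the mesenchymal filament gene Vim (vimentin) at 0.132 (0.0675 to 0.232) and the kinase gene Dmpk at 0.151 (0.0928 to 0.232). With the mixed cells left out on both sides, Des was at 0.696 (0.0720 to 3.49) and Vim at 0.818 (0.236 to 2.31). That setting removes cells by these same genes.

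Neuronal and glial markers gave few counts. The 8 neuronal markers had 35 counts in the cells, with Stmn2, Elavl4 and Sncg at 0. Of the 5 with enough counts 2 were lower, beside 40.4% lower over all genes. Syt4 gave 20 of the 35 counts and was at 1.66 (0.946 to 2.79). Snap25 gave 11 and was at 1.71 (0.777 to 3.48). With the Aqp8-dominant cells left out of the remaining cells, Syt4 was higher at 2.81 (1.47 to 5.30). That ratio lay inside the interval of the blank ratio in the same setting, 2.23 (1.66 to 2.98). The 6 glial markers had 23 counts, with Sox10 at 0, and 1 of 4 was lower. The synuclein gene Sncg, with 39 counts in the remaining cells, was at least 2.62-fold lower, the secreted neuronal glycoprotein gene Olfm1 at least 2.28-fold, the synaptotagmin gene Syt11 at least 2.08-fold and the phosphodiesterase gene Pde10a at least 1.94-fold, each against a floor of 3 counts over the 198 cells. With the counting error of both groups in the interval, the lower bounds of these 4 folds were 2.03, 1.76, 1.59 and 1.48. The transcription factor gene Nfia (0.108, 0.00268 to 0.633) and the matrix gene Matn2 (0.116, 0.00286 to 0.679) had 1 count each.

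Marker counts of other cell types were present in most of the cells. At least 1 count of the 23 stromal, muscle, neuronal and glial marker genes was present in all but 86 of the 198 cells and 2 or more in 41 (20.7%), and together they made up 5.32% of the other-gene counts. The Aqp8-dominant cells had the same share, 5.32%, with 2 or more in 25.6% of cells. Goblet, enteroendocrine, tuft, immune and endothelial markers of the lists are not on the panel, and the gastric mucin gene Muc6 had 1 count.

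Receptor genes were close to the background of all genes. Of the 9 growth factor and mechanosensing receptors and signalling genes, 0 were higher and 3 lower, beside 40.4% lower over all genes, with a median ratio of 0.621 beside 0.663. The lower ones included the mechanosensitive channels Piezo1 (2 against 68 counts, 0.146, 0.0174 to 0.549) and Piezo2 (3 against 68 counts, 0.219, 0.0441 to 0.669). The kinase gene Mapk10, also among them, was at 0.452 (0.0515 to 1.84) on 2 against 22 counts, an interval that included 1. Of the 4 nuclear receptors, 3 had enough counts and none passed the fold; Ppara was at 0. Of the nutrient and metabolism list the panel held Prdx6, given above, and the glucose transporter Slc2a2 with 3 counts.

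**Figure D2:**
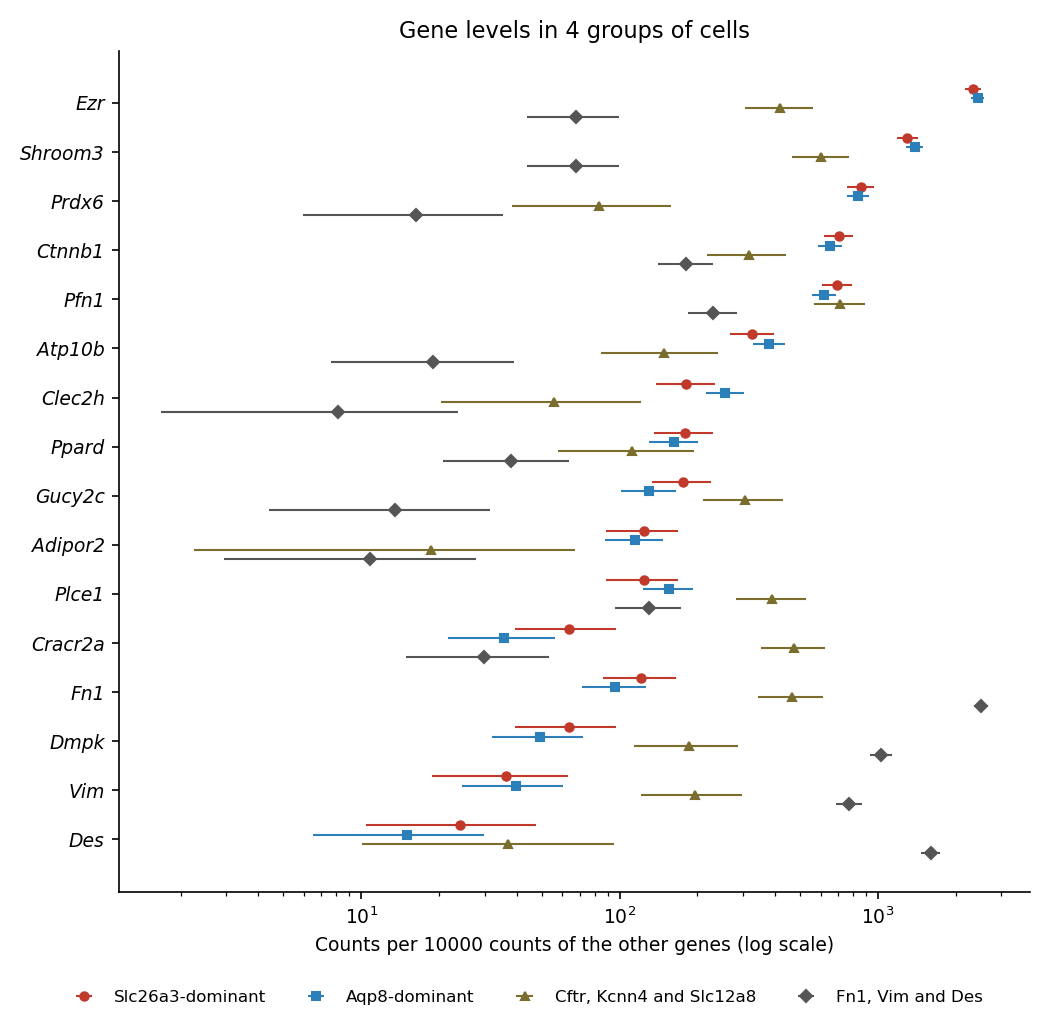
Levels of 16 genes, as counts per 10000 counts of the other genes on a log scale, in 4 groups of cells with exact 95% intervals (bars). Slc26a3-dominant and Aqp8-dominant cells lie side by side for Ezr, Shroom3 and Prdx6, while the cells chosen by Fn1, Vim and Des lie more than 10-fold below them for these 3 genes.

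Set beside Aqp8-dominant cells, the Slc26a3-dominant cells had nearly the same profile. Of 46 genes with at least 20 counts, 0 were higher (0.0%) and 2 were lower (4.35%), and the median ratio was 1.05. Ezr was at 0.963 (0.880 to 1.05), Shroom3 at 0.937 (0.830 to 1.06), Prdx6 at 1.02 (0.877 to 1.19), Ctnnb1 at 1.08 (0.910 to 1.28) and Pfn1 at 1.12 (0.945 to 1.33), so for these genes a difference of 2-fold lay outside the counting error. Blanks had a ratio of 1.03 (0.765 to 1.37). Per cell and with no total, Ezr was at 0.829 (0.757 to 0.907) and Shroom3 at 0.807 (0.714 to 0.910), beside median other-gene counts of 13 in the Slc26a3-dominant and 16 in the Aqp8-dominant cells.

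The scaffold gene Grip1 was among the lower genes, with 4 against 19 counts and an interval of 0.0835 to 1.01 around 0.337, and is named here after its values were seen.

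Clec2h had a smaller difference with an interval that left out 1. It was at 0.707 (0.513 to 0.965) and, with every cell thinned to 10 other-gene counts, at 0.438 (0.251 to 0.733), and was found in 20.7% against 36.6% of cells. Among 46 intervals, 2 lay above 1 and 2 below.

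Of the lists, only the ion and fluid transport list had a summed level whose interval left out 1, at 1.44 (1.03 to 2.01) on 72 against 80 counts, of which Gucy2c gave 58 and 69 (1.35, 0.933 to 1.94). The apical list had a summed ratio of 0.975 (0.913 to 1.04) and the stromal markers 1.06 (0.798 to 1.40). In both lists 0 genes passed the fold.

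**Figure D3:**
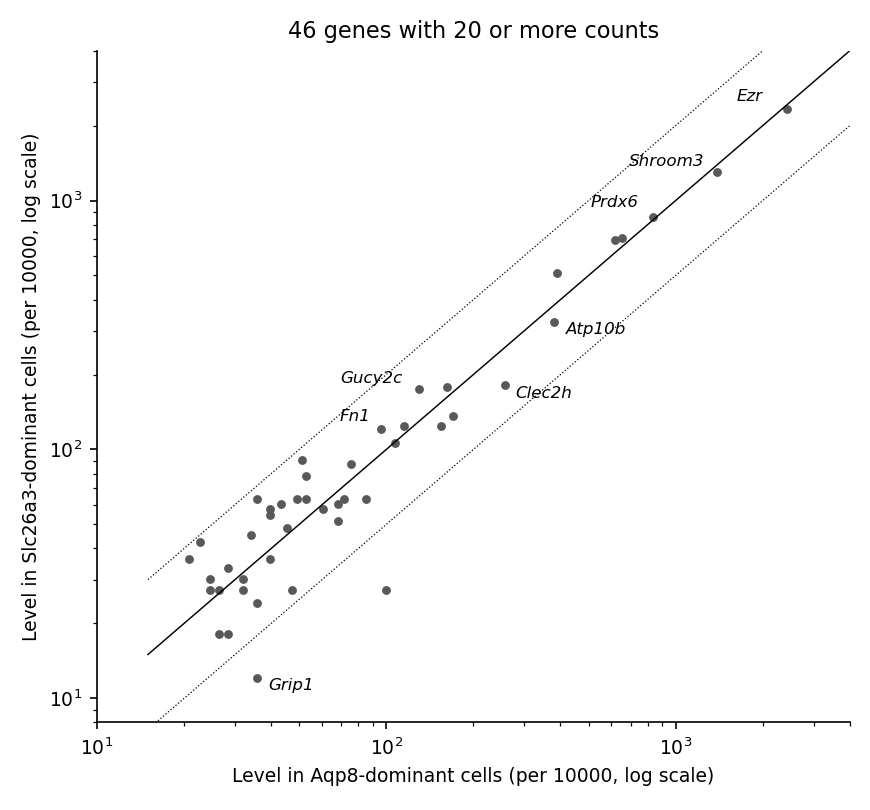
Levels of the 46 genes with at least 20 counts in Slc26a3-dominant (y axis) against Aqp8-dominant cells (x axis), both as counts per 10000 counts of the other genes on log scales. The solid line marks equal levels and the dotted lines 2-fold; 2 genes lie beyond them, with Grip1 among them.

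Equal depth left the same picture for the share of cells with a count. After thinning to 10 other-gene counts, 144 Slc26a3-dominant cells remained and 54 were left out, against 205 and 68 of the Aqp8-dominant cells and 918 and 140 of the remaining cells. Ezr was then found in 88.2% of the Slc26a3-dominant, 88.8% of the Aqp8-dominant and 44.2% of the remaining cells. Shroom3 was found in 66.0%, 74.6% and 40.2%, and Prdx6 in 56.3%, 56.6% and 22.9%. In cells with at least 5 counts of Fn1, Vim and Des together, which should lack these epithelial genes, the thinned shares were 7.32% for Ezr, 5.85% for Shroom3 and 1.46% for Prdx6. Unthinned, the shares in those 211 cells were 9.0%, 9.0% and 2.37%, with a median of 15 other-gene counts.

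Cells carrying crypt transport genes differed from the Slc26a3-dominant cells by more genes. Only 5 cells reached 3 counts of Cftr and Kcnn4 together, so a wider group of 70 cells with at least 2 counts of Cftr, Kcnn4 and Slc12a8 and under 3 of Slc26a3 and of Aqp8 was added after seeing the data and is called crypt-gene cells here. Of 36 genes, 9 were higher in the Slc26a3-dominant cells (25%) and 13 lower (36.1%), the 3 choosing genes included among the lower. Prdx6 was 10.2-fold higher (5.32 to 22.6) and was found in 12.9% of the crypt-gene cells. Ezr was 5.60-fold higher (4.14 to 7.74), Ctnnb1 2.23-fold (1.55 to 3.30) and Shroom3 2.16-fold (1.66 to 2.84).

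Pfn1 was at 0.973 (0.749 to 1.28) in that comparison, so the actin genes did not all differ. Lower in the Slc26a3-dominant cells were Kcnq1 (0.0782, 0.0262 to 0.195), Cracr2a, a calcium-binding regulator of store-operated calcium entry (0.134, 0.0766 to 0.227), the kinase anchoring gene Akap9 (0.175, 0.0980 to 0.306), the receptor phosphatase Ptprk (0.212, 0.124 to 0.356) and the phospholipase Plce1 (0.318, 0.202 to 0.501). The stromal markers Vim (0.186, 0.0835 to 0.396) and Fn1 (0.261, 0.168 to 0.403) and the muscle marker Dmpk (0.342, 0.176 to 0.665) were lower too, so the crypt-gene cells carried more counts of these other cell types, and the part of mixing in the comparison was not tested. Gucy2c was at 0.573 (0.367 to 0.906). Blanks were at 37.1 per 10000 in the crypt-gene cells on 4 counts, a ratio of 6.52 (2.45 to 24.5). Per panel count the blank ratio was 4.25 (1.60 to 16.0). The part of blanks in the higher genes was not tested. The ratios of Prdx6, Ezr and Clec2h (3.26, 1.41 to 9.23) lay inside the interval of the blank ratio of 6.52. So did those of Adipor2 (6.68, 1.73 to 57.0) and the semaphorin gene Sema6a (5.70, 1.46 to 48.9), which had 2 counts each in the crypt-gene cells. The ratios of Ctnnb1, Shroom3 and Atp10b (2.20, 1.29 to 3.98) lay below the blank interval, so blanks differed by more than these genes. Their own intervals overlapped with the blank interval. In the 5 cells of the narrower group Ezr had a ratio of 3.22 (1.38 to 9.96).

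Among the Slc26a3-dominant cells themselves, Ezr was higher where more Aqp8 or more Slc26a3 was counted. Its level was 1232 (805 to 1806) in the 19 cells with no Aqp8, 2009.5 (1719 to 2335) in the 70 with 1 or 2, and 2562 (2357 to 2780.0) in the 109 with 3 or more. By Slc26a3 it was 1783 (1458 to 2158) at 3 counts, 2080.1 (1793 to 2401) at 4 or 5, and 2641 (2411 to 2888) at 6 or more. The lowest and highest classes did not overlap in their intervals in either order, while the middle class overlapped with the lowest.

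Depth moved with these classes. Median other-gene counts were 11, 10.5 and 18 in the Aqp8 classes and 11, 11.5 and 21 in the Slc26a3 classes. Ezr by depth alone was 1702 (1313 to 2169) under 10 other-gene counts, 2013 (1773 to 2276) at 10 to 19 and 2727 (2482 to 2989.5) at 20 or more. Thinned to 10 counts per cell, Ezr was at 1091 (564 to 1906), 2256 (1809.7 to 2780.0) and 2415 (2111 to 2750.3) in the Aqp8 classes, on 11, 39 and 94 cells. The lowest and highest Aqp8 class still did not overlap, on 12 thinned Ezr counts in the lowest. In the Slc26a3 classes Ezr was then at 1724 (1279.7 to 2273), 2174 (1769 to 2644) and 2565 (2201 to 2972), on 29, 46 and 69 cells. There the lowest and highest class overlapped. Depth and the count classes cannot be told apart here.

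Shroom3, Prdx6 and Ctnnb1 did not separate over these classes. Shroom3 was at 1043 (653 to 1579), 1218 (994 to 1477) and 1354 (1207 to 1515) over the Aqp8 classes and Prdx6 at 616, 804 and 897, with overlapping intervals throughout. Ctnnb1 went the other way, at 948 (579 to 1464), 697 and 684, again with overlap. Gucy2c was at 237, 236 and 147, on 5, 20 and 33 counts.

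Cracr2a and Fn1 ran opposite to Ezr. Cracr2a was at 284 (104 to 619), 130.0 (64.9 to 233) and 17.8 (4.84 to 45.5) over the Aqp8 classes, on 6, 11 and 4 counts, and the lowest and highest class did not overlap. Over the Slc26a3 classes it was at 153, 44.5 and 43.9, with overlap. Fn1 was at 238 (129.95 to 399), 167 and 60.4 (30.2 to 108) over the Slc26a3 classes without overlap of the lowest and highest, and at 284, 154 and 93.3 over the Aqp8 classes with overlap.

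**Figure D4:**
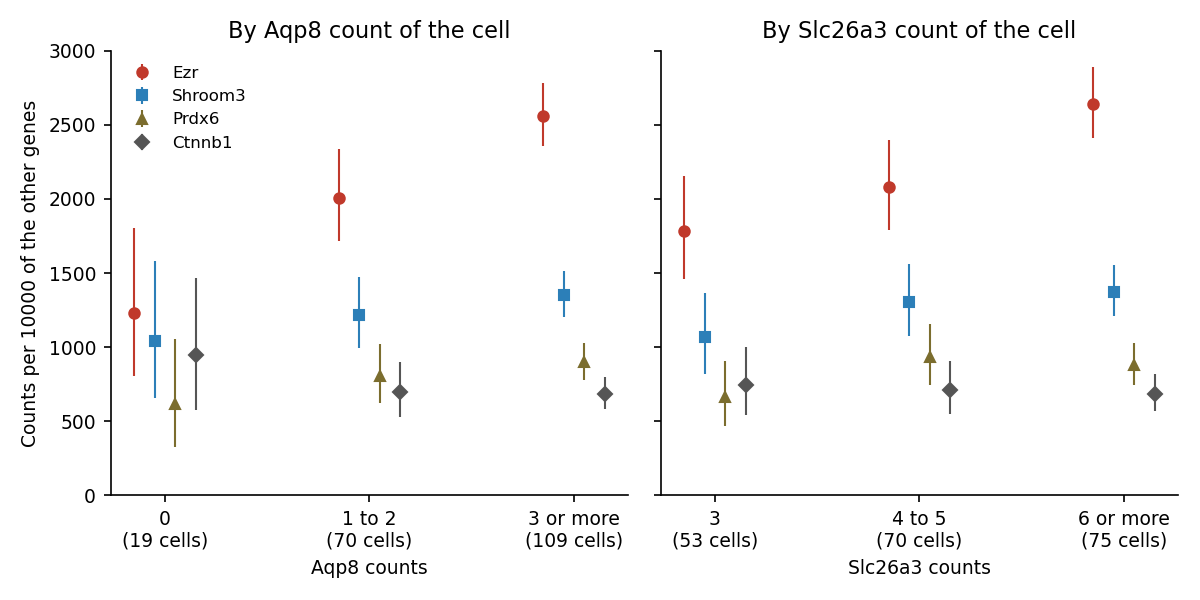
Levels of Ezr, Shroom3, Prdx6 and Ctnnb1, as counts per 10000 counts of the other genes with exact 95% intervals (bars), in Slc26a3-dominant cells grouped by Aqp8 count (left) and Slc26a3 count (right). Ezr is higher in each next class, from 1232 to 2562 on the left and from 1783 to 2641 on the right, while the intervals of the other 3 genes overlap.

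The share of Slc26a3-dominant cells is given here by groups of cell identifiers, as a description with no test, since it rests on the counts that chose the cells. Identifiers that share all but their last 5 digits form 85 blocks, whose meaning is not stated in the sources used here and which may or may not be places on the slide. Slc26a3-dominant cells lay in 36 blocks, with 28 of them (14.1%) in 1 block and 91 (45.96%) in 5 blocks. In the 11 blocks with at least 15 cells of both kinds, 307 cells in all, their share ranged from 21.6% (9.83 to 38.2, 8 of 37 cells) to 73.3% (44.9 to 92.2, 11 of 15 cells). These 2 blocks are the extremes of the 11. The block with the most such cells, 28 of 47, was at 59.6% (44.3 to 73.6), beside 42.0% among all 471 cells of both kinds.

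Against Aqp8-dominant cells, leaving out the block with the most Slc26a3-dominant cells moved the number of genes past 2-fold from 2 to 5.

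**Figure D5:**
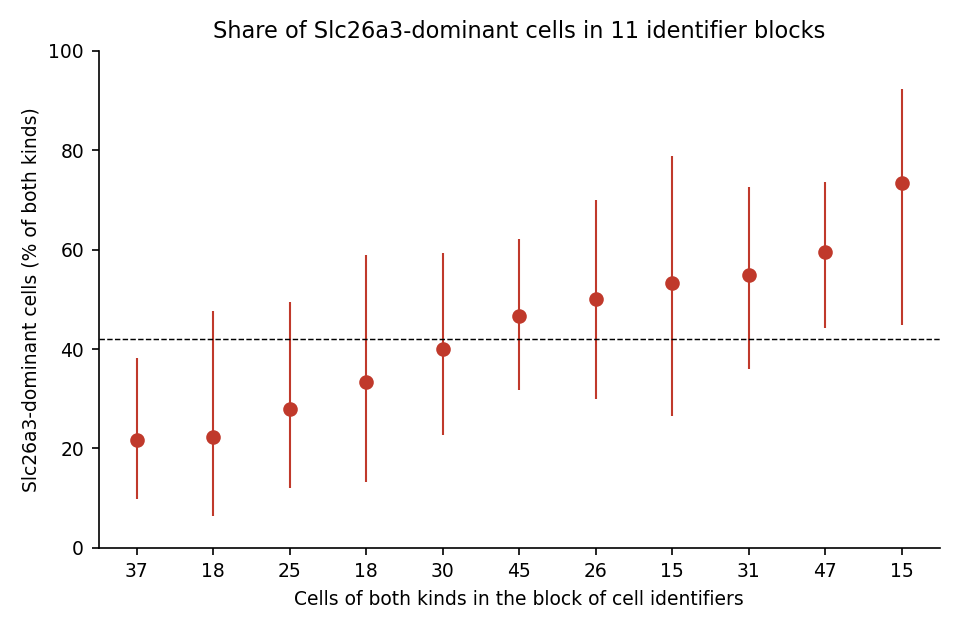
Slc26a3-dominant cells as a percentage of Slc26a3-dominant and Aqp8-dominant cells together (y axis) in 11 identifier blocks, ordered by that share, with exact 95% binomial intervals (bars) and the number of cells of both kinds in each block on the x axis. Shares run from 21.6% to 73.3%, and the dashed line marks 42.0%, the share over all 471 cells of both kinds.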

How the data were processed

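MERSCOPE images of 10 µm paraformaldehyde-fixed sections gave 1 table per region, and the values are counts of transcripts per gene and segmented cell, made by the authors and deposited without normalization. Seurat is named in the submitters' processing notes, with no version. How transcripts were decoded and cells outlined is not given in the sources used here. Each table holds 140 genes, all matched by symbol in RefSeq, and 40 blank barcodes.

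Cells with at least 10 panel counts, blanks left out, were used. The members and gene lists were chosen with earlier results of these data known. A gene's level is its summed counts per 10000 counts of the genes other than Slc26a3 and Aqp8. Levels carry exact Poisson and ratios and shares exact Clopper-Pearson intervals (95%). Cells are not replicates, so no p-value was computed. Calls needed 20 counts over both groups and a 2-fold ratio. Up to 10 genes a direction with the largest ratio and an interval without 1 were named, besides members of the lists. Other genes named were chosen after their values were seen, and some genes that count toward the totals are not reported here. A gene at 0 was set against a floor of 3 counts over the group.

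No doublets were removed and mixing by segmentation was not corrected. Alternatives were the denominator, counts per cell, minimums of 5 and 25 panel counts and of 2 and 5 Slc26a3 counts, ties left out, mixed cells left out, thinning, the cell with the most counts left out, and no count filter. Added after seeing the data were the Aqp8-dominant cells left out of the remaining cells, 1 identifier block left out, cells near the dividing line left out, and both groups chosen by crypt and by matrix and muscle genes. The calls with their intervals were tried on simulated summed counts with counting error only. Against the remaining cells 86.0% of 4-fold changes with enough counts were recovered, and 2.5% of unchanged genes were called. Against the Aqp8-dominant cells these shares were 92.7% and 1.36%. A simulated gene was called only when its interval also left out 1. The numbers of higher and lower genes given above did not require this, so the simulated shares are not their error rates. Spread between cells and mixing were not simulated, so the simulation does not show that the intervals cover them. Software was Python 3.11.15, numpy 2.4.6, scipy 1.17.1, pandas 2.3.3 and matplotlib 3.10.9.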

Additional observations from a re-analysis of the deposited data

Results flagged for a closer look

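Signal lay outside the cells and tables compared. In female region 1, 28 cells met both gene limits with under 10 panel counts (3 to 9, median 7.5) and were in no comparison. Their Ezr level was 1512 per 10000 counts of the other genes (805 to 2585, 13 counts), their Ctnnb1 level 1628 (14 counts) and their Shroom3 level 930.2 (8 counts), with Fn1 at 5 counts and Vim and Des at 0. In male region 1, Slc26a3 gave 8 counts in 7 cells, above the highest blank barcode of that table at 2. None of these 7 cells had Aqp8, 1 Ezr count and 0 Shroom3 counts were in them, and their median panel total was 2. Slc26a3 had 7 counts beside a highest blank of 9 in male region 0 and 10 beside 33 in female region 0.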

How the results depend on the processing

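No paired analysis was possible because the cells come from 1 table of 1 animal, and no animal could be left out for the same reason. Of 411 values of single genes under the alternatives, 355 stayed within the counting interval and 56 moved. No called ratio turned its direction.

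Against the remaining cells, 43 genes passed 2-fold, 3 higher and 40 lower. With at least 25 panel counts per cell, 13 passed, 0 higher and 13 lower. With mixed cells left out 15 passed, 1 higher and 14 lower. The higher genes numbered 0 with all 140 genes in the total, 6 per cell, 8 with at least 5 panel counts, 7 with at least 5 Slc26a3 counts, 5 without ties, 5 after thinning, 6 with no count filter and 14 without the Aqp8-dominant cells.

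Against Aqp8-dominant cells, 2 genes passed, 0 higher and 2 lower. Without the block of most members 5 passed, 2 of them higher, and without cells near the dividing line 4 passed, 2 of them higher. Leaving out mixed cells or thinning each gave 1 higher gene. With no count filter 44 passed, 18 higher and 26 lower. The cells numbered 73 with at least 25 panel counts and 111 with at least 5 Slc26a3 counts.

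Depth limits the account: only 25 genes beside Slc26a3 and Aqp8 had 20 or more counts in the cells, so differences in the others were not detectable unless large.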
